A study of Mus musculus with 2 samples.

Results

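Wt1 positive stroma is the name used here for cells of the infarcted mouse heart with collagen transcripts and transcripts of Wt1, Lrrn4 or Cxadr, genes of the epicardium, the cell layer on the outer surface of the heart. They were chosen from the MI library by their UMIs, the counted mRNA molecules of a cell. A cell was taken with at most 25% of UMIs from mitochondrial genes, at least 1% from Col1a1, Col1a2 and Col3a1 together, at least 3 UMIs of Wt1, Lrrn4 and Cxadr together, and at most 2 UMIs of the mesothelial genes Msln, Upk3b and Krt19 together. This gave 296 cells of 14892 cell barcodes in the 2 libraries. Wt1 itself was at 0 in 84 of the 296, which entered through Lrrn4 or Cxadr, and 71.6% had a Wt1 UMI. They made up 3.51% (3.12 to 3.92) of the 8441 MI cells within the mitochondrial limit, and 8.57% (7.66 to 9.56) of the 3453 collagen positive ones.

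The libraries were made by Drop-seq, which seals single cells with barcoded beads in droplets so that their mRNA can be counted, from male wild-type C57BL6/J mice of 8 to 10 weeks. The MI library was 1 heart taken 14 days after the left anterior descending coronary artery was tied off. The sham library pooled 4 hearts taken 14 days after the same surgery without tightening the suture. Each group was thus 1 library, no difference had a replicate check, and every bracketed range here is a 95% interval that covers counting error only. Cells of 1 library are not replicates, so no p-value was computed.

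The epicardium is a mesothelial sheet held together by keratins and cell junctions. In the embryo some of its cells lose these junctions, move into the heart wall and become fibroblasts and mural cells, and the transcription factor Wt1 is needed for this. In the adult heart the sheet is quiet, and injury is known to raise embryonic epicardial genes such as Wt1.

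The 5 marker genes are spread over the mm10 genome. Wt1, a zinc finger transcription factor, is at chr2:105126529-105173616 and Lrrn4, a leucine-rich repeat membrane protein of mesothelia, at chr2:132868305-132880891. Cxadr, the coxsackievirus and adenovirus receptor of cell junctions, is at chr16:78301489-78359774. Clu, which encodes the secreted chaperone clusterin, is at chr14:65968483-65981547, and Saa3, which encodes an acute phase apolipoprotein, at chr7:46711998-46715700. All 5 are annotated as protein coding. Saa3 and Clu were named as markers of these cells but took no part in choosing them. The RefSeq promoter table (GRCm38.p6) held 2 of these 5 genes, and the 250 bases before their starts are shown because Lrrn4 helped to choose the cells and Saa3 did not. Both are on the minus strand, at chr2:132880863-132881112 for Lrrn4 and chr7:46715677-46715926 for Saa3. The starts are those of the promoter table and lie inside the gene spans given above, so each window overlaps its span by some bases. Motif distances are counted from these starts, and capitals mark motif matches.
Saa3: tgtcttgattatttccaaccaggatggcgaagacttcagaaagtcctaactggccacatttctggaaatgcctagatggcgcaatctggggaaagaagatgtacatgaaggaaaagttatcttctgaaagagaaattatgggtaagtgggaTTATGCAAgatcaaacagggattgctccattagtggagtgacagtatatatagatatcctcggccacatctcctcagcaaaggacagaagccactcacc
Lrrn4: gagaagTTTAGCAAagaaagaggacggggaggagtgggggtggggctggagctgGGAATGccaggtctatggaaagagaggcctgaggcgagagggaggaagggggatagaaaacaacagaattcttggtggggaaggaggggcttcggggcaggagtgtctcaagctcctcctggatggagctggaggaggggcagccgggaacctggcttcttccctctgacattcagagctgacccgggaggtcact
The motifs searched on both strands were TTNNGCAA for C/EBP factors, GGAATG for TEAD factors, TGANTCA for AP-1 and GCGNGGGNG for WT1 and EGR1, besides the NF-kB motif. A C/EBP match lay 99 bases before the Saa3 start and another 244 bases before the Lrrn4 start, and 10.8% of the 27025 genes with a promoter in the table hold one. Lrrn4 also had a TEAD match 196 bases before its start (14.4% of genes). Neither window matched the AP-1 (7.82%), WT1 and EGR1 (11.8%) or NF-kB (1.13%) motif. A match describes letters and is not evidence of binding.

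Cells near the limits of the rule were not rare. Of the members, 196 had no UMI of Msln, Upk3b or Krt19, 61 had 1 and 39 had 2. Just outside, 28 cells that met the collagen and marker limits had 3 such UMIs and 20 had 4, while 81 had 9 or more. At the other limit, 62 members had 3 marker UMIs and 56 had 4, against 93 cells with 2 and 180 with 1 that were left out. All 3 marker genes were seen in 116 members, a pair of them in 142 and a single one in 38. On the collagen limit, 21 members lay between 1% and 1.5%, and 9 cells that met every other limit lay between 0.5% and 1%.

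Members had a median of 6252.5 UMIs and 2434 genes, against 4986.5 UMIs and 1993 genes in the 2714 marker negative stromal cells. These met the same mitochondrial and collagen limits, had at most 2 mesothelial UMIs and had no UMI of Wt1, Lrrn4 or Cxadr. A further 273 cells had 1 or 2 marker UMIs and at most 2 mesothelial UMIs. Mesothelial cells, with at least 3 UMIs of Msln, Upk3b and Krt19 and no limit on collagen, numbered 200 in MI and 91 in sham, with medians of 7524 and 2096 UMIs. Of the 200 in MI, 162 also met the collagen limit and the marker limit of the Wt1 positive stroma, so the mesothelial count alone kept them out. The MI library held 33275336 UMIs in 8555 barcodes and the sham library 11307405 in 6337. The libraries shared 5 barcodes, none of them a member. Called doublets were 8 of the 296 members (2.70%) and 84 of the marker negative cells (3.10%), and both stayed in.

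The values that chose the cells describe them and are no finding. Summed over cells and divided by all UMIs of the set (CPM, UMIs in every 1000000), Wt1 was at 211 in the Wt1 positive stroma, 281 in MI mesothelial cells and, by the rule, 0 in marker negative stroma. Lrrn4 was at 294 and Cxadr at 351 CPM in the Wt1 positive stroma, below the 693 and 521 CPM of MI mesothelial cells. Upk3b, a uroplakin of the mesothelial surface, was at 46.8 CPM in the Wt1 positive stroma and 739 CPM in mesothelial cells. Col1a2 stood at 21013 CPM, against 26952 in marker negative stroma and 11513 in mesothelial cells. On each of these genes the Wt1 positive stroma lay between the sets beside it.

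The label was set beside fibroblast genes outside the rule. Pdgfra, the platelet-derived growth factor receptor of fibroblasts, was at 82.6 CPM in the Wt1 positive stroma and 63.4 CPM in marker negative stroma. Dcn, the matrix proteoglycan decorin, was at 4484 and 1510 CPM in the same order. Tcf21, a transcription factor of resident cardiac fibroblasts, went the other way, with 5.74 CPM in the Wt1 positive stroma and 44.8 CPM in marker negative stroma. The Tcf21 level of the members was near the 9.04 CPM of mesothelial cells and the 5.96 CPM (2 UMIs) of lymphocytes. Postn was also lower, at 194 and 3253 CPM, and Lum, at 700.2 and 635 CPM, was within 2-fold. Dcn does not set the members apart from mesothelial cells, which had 4015 CPM in MI and 3690 CPM in sham. Sham marker negative stroma had 14983 CPM of Dcn. That epicardial genes and collagens occur together in these cells follows from the rule.

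Clu was seen in most members and Saa3 in a minority of them. With every cell thinned to 1000 UMIs, 61.1% (55.3 to 66.7) of the Wt1 positive stroma had a Clu UMI, against 58.5% of MI mesothelial cells and 4.69% of marker negative stroma. The share in lymphocytes, which should lack the gene and were taken as a guide to free RNA in the droplets, was 5.11%. Their median depth before thinning was 1385 UMIs. A Saa3 UMI was found in 15.9% (11.9 to 20.5) of the Wt1 positive stroma, 18.0% of mesothelial cells, 0.687% of marker negative stroma and 1.46% of lymphocytes. After this thinning, neither share was above that of lymphocytes in the marker negative stroma as a whole. The lymphocyte values rest on few cells: 10 of the 173 met the collagen limit, and 1 cell held 42.0% of their Clu UMIs. A group of 74 marker negative cells that clustered with the members had far higher levels of both genes, and is given with the clusters. Without thinning, the shares were 87.5% for Clu and 26.7% for Saa3 in the Wt1 positive stroma. Marker negative stroma then had 13.3% (12.0 to 14.6) for Clu, above the 6.36% (3.22 to 11.1) of lymphocytes. For Saa3 the 2 sets had 2.54% (1.98 to 3.21) and 1.73% (0.359 to 4.98). The sets differ in depth, and the part of free RNA in these shares was not tested. No thinning left out a member, and it left out 94 of the marker negative cells and 36 of 173 lymphocytes.

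The 2 genes were spread differently over the members. Clu was at 0 in 37 of the 296 cells, with a median of 9.93 UMIs per 10000 and a highest value of 157. Saa3 was at 0 in 217 cells, and the 10 cells with the most Saa3 UMIs held 56.8% of its 1012 UMIs. Few members thus held most of the Saa3 level of 447 CPM, whereas the Clu level of 1494 CPM was shared by most of them. Dcn was at 0 in 3 members.

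**Figure D1:**
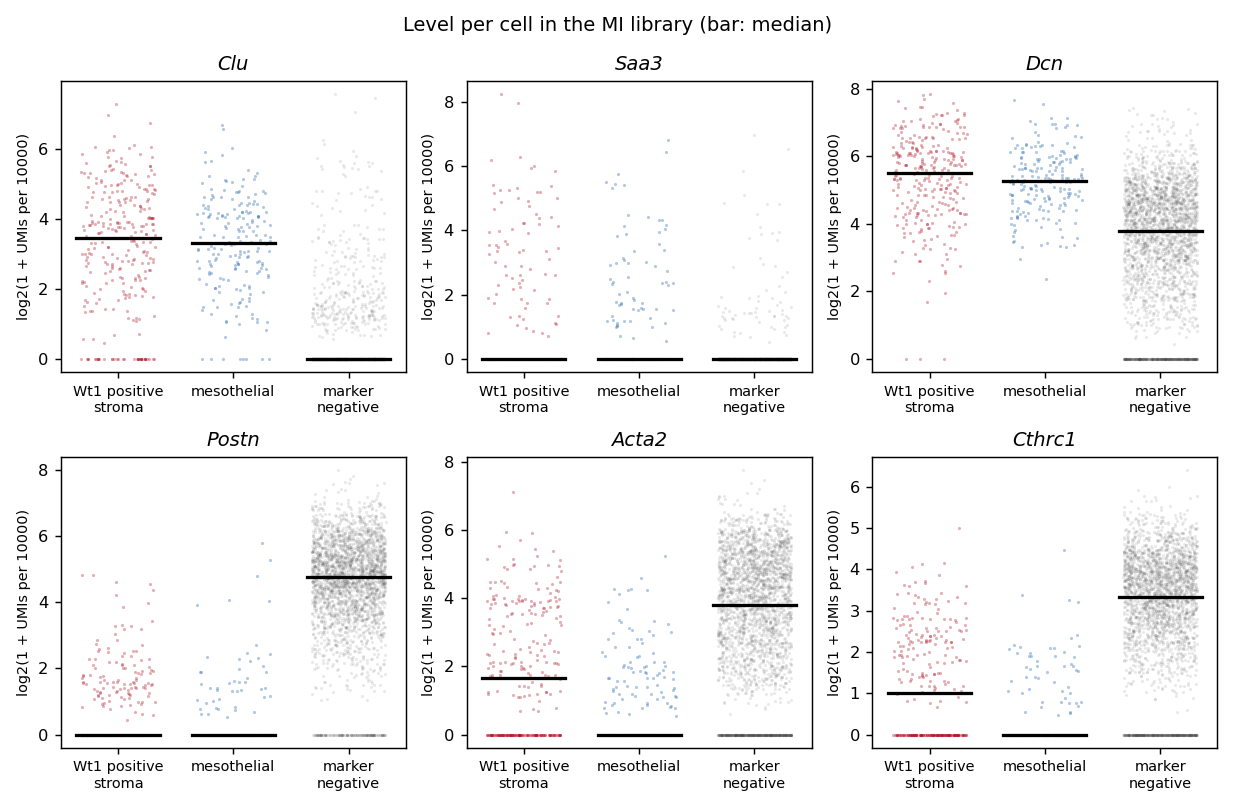
Level of 6 genes in every cell of the Wt1 positive stroma, the MI mesothelial cells and the marker negative stroma, as log2 of 1 plus UMIs per 10000; each point is a cell and the bar is the median. Clu and Dcn are high in the Wt1 positive stroma and the mesothelial cells, Saa3 is at 0 in 217 of 296 members, and Postn, Acta2 and Cthrc1 are higher in the marker negative stroma.

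In the sham library the rule found 0 of 420 collagen positive cells, which allows a share of up to 0.874%. Depth and the collagen limit differ between the libraries. Collagen positive cells were 40.9% of MI and 6.66% of sham cells, and sham marker negative stroma had a median of 1411.5 UMIs. With every cell thinned to 1000 UMIs before the rule was applied, 57 of 3359 collagen positive MI cells met it (1.70%), against 1 of 439 in sham (0.228%). The 1 sham cell did not meet the rule before thinning. Thinning also lowers the mesothelial UMIs, so cells above the limit of 2 can pass after it. These counts can thus include mesothelial cells, and how many was not counted. Without the collagen limit, 10 sham cells met the other limits. The sham mesothelial cells carried Wt1 at 246 CPM and Clu at 928 CPM, but a single Saa3 UMI in 91 cells (4.32 CPM), whereas MI mesothelial cells had 416 CPM of Saa3. That MI value rests on few cells, since 10 of the 200 held 72.3% of the Saa3 UMIs and 1 cell held 23.8%. What part of these differences comes from surgery, from the single hearts or from depth cannot be told apart with 1 library each.

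Against marker negative stroma of the same heart, the Wt1 positive stroma had higher levels of all 12 measured surface epithelium genes, of 8 of 16 Wnt pathway genes and of 9 of 16 acute phase and complement genes, while 3 genes of each of the last lists were lower. Levels of the scar matrix genes Postn and Col8a1 were far lower. Of 13194 genes with at least 20 UMIs over both sets, 1168 were at least 2-fold higher (8.85%) and 1124 at least 2-fold lower (8.52%) in the Wt1 positive stroma. The median gene had a log2 ratio of 0.02. The genes of the rule are not among them. The shares of 8.85% and 8.52% are the background for every list count against marker negative stroma given below. The 12 genes named in each direction had to keep their direction with cells matched on depth, so that agreement was fixed by their choice.

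Enpp2, which encodes autotaxin, the enzyme that makes lysophosphatidic acid, was at 239 CPM in the Wt1 positive stroma and 5.57 CPM in marker negative stroma, a log2 ratio of 5.42 (5.09 to 5.76). Ptger3, a prostaglandin E2 receptor, was at 35.8 and 0.448 CPM, a log2 ratio of 6.32. Wnt4, a secreted Wnt ligand, was at 118 and 3.20 CPM (log2 ratio 5.21). Each of the 3 was seen in 19.9% to 44.6% of members, in at most 1.66% of marker negative cells and in at most 2.31% of lymphocytes. Gpm6a, a membrane glycoprotein, had a log2 ratio of 5.74, the uroplakin Upk1b 5.50, the secreted epithelial protein dermokine (Dmkn) 5.46 and keratin 8 (Krt8) 5.46. Aox3, an aldehyde oxidase, and Sez6l both stood at 5.84. In sham marker negative stroma Enpp2 was at 169 CPM, seen in 20.9% of cells, and Wnt4 at 2.88 CPM, while Ptger3 had no UMI.

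Some of these genes are better known from other cells. Alas2, the first enzyme of heme synthesis in red cell precursors, had the highest log2 ratio of the 12, at 7.87 (5.97 to 10.95), with 68 UMIs in the Wt1 positive stroma and 2 in marker negative stroma. Hbb-bs, a beta globin gene, was at 6.63 CPM in the Wt1 positive stroma and 7.24 CPM in marker negative stroma, and Slc4a1 and Hemgn had no UMI in the members. Mbp, myelin basic protein, was at 39.8 CPM in the Wt1 positive stroma and 0.961 CPM in marker negative stroma, with no UMI of the Schwann cell gene Sox10 in the members. Both genes were also present in MI mesothelial cells, Alas2 at 44.1 CPM and Mbp at 76.8 CPM.

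**Figure D2:**
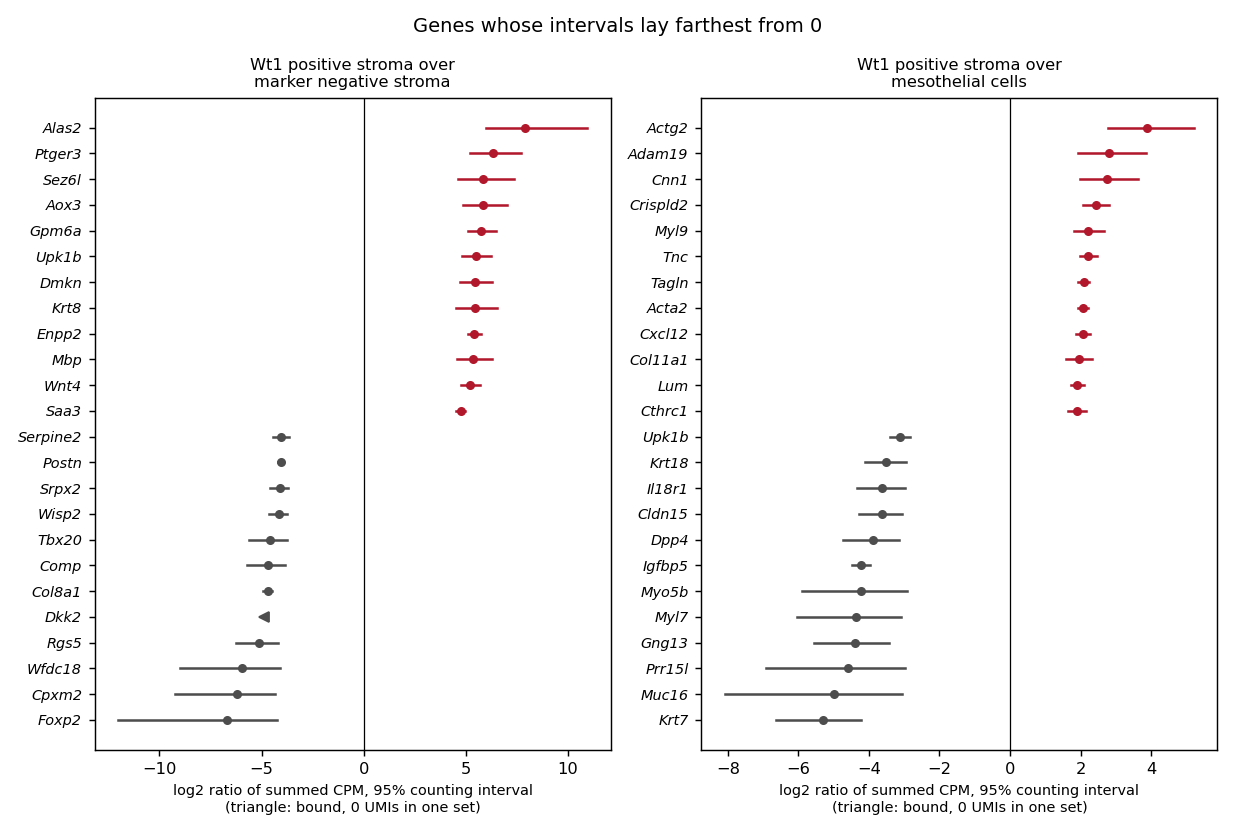
Log2 ratio of summed CPM for the 12 genes furthest above and below 0 in the comparison of Wt1 positive stroma with marker negative stroma (left) and with MI mesothelial cells (right); bars are 95% counting intervals and the triangle is a bound. Alas2 at 7.87 leads on the left and Actg2 at 3.87 on the right.

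Surface epithelium genes that had no part in the rule were all higher. Of the 12 measured genes of that list, all were at least 2-fold higher in the Wt1 positive stroma than in marker negative stroma, with a median log2 ratio of 4.69 beside 0.02 over all genes. Keratin 18 (Krt18) was at 12.8 and 0.512 CPM and Ezr, which encodes ezrin, the linker of membrane and actin, at 156 and 12.7 CPM. Rspo1, a secreted enhancer of Wnt signalling, was at 34.0 and 1.28 CPM. Keratin 7 (Krt7) rested on few UMIs, at 3.09 CPM (7 UMIs) and 1.15 CPM (18 UMIs).

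The epicardial transcription factors pointed both ways. Of the 12 measured, 4 were at least 2-fold higher, 3 at least 2-fold lower. The median log2 ratio was -0.22, and 0.01 with no minimum of UMIs. Higher were Gata5 (12.8 CPM in the Wt1 positive stroma, 0.064 CPM or 1 UMI in marker negative stroma), Bnc1, which encodes basonuclin (19.9 and 0.384 CPM), Gata6 (440.0 and 95.8 CPM) and Meis1 (log2 ratio 1.88). Lower were the T-box factor Tbx20 (4.86 and 117 CPM), the tendon factor Scx (2.21 and 23.8 CPM) and Tcf21. Tbx18, an embryonic epicardial factor, was at 27.4 CPM in the Wt1 positive stroma and 40.8 CPM in marker negative stroma, within 2-fold.

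In the retinoic acid pathway 4 of 14 measured genes were at least 2-fold higher and 4 at least 2-fold lower. The higher ones were enzymes of synthesis. Aldh1a2, which makes retinoic acid, was at 119 CPM in the Wt1 positive stroma and 18.2 CPM in marker negative stroma, with log2 ratios of 2.71 for it, 1.09 for Aldh1a1, 1.07 for Aldh1a3 and 1.45 for the retinol dehydrogenase Rdh10. After thinning, 11.8% of members had an Aldh1a2 UMI, against 1.91% of marker negative stroma and 0 of 137 lymphocytes, which allows a share of up to 2.66%. Mesothelial cells had 124 CPM of Aldh1a2 in MI and 479 CPM in sham. Marker negative stroma had 18.2 CPM in MI and 112 CPM in sham, so neither set was higher in MI. The degrading enzyme Cyp26b1 was at 0.442 CPM (1 UMI) and 9.86 CPM.

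Transition genes of epithelium and mesenchyme gave 1 higher and 4 lower of 13. Snai2, a repressor of epithelial genes, was at 12.4 CPM in the Wt1 positive stroma and 61.7 CPM in marker negative stroma, and Sox9 at 17.7 and 144 CPM. Snai1 was at 30.9 and 33.4 CPM and vimentin (Vim) at 1839.96 and 2724 CPM, both within 2-fold. Cdh11, a mesenchymal cadherin, was the higher one, at 348 and 138 CPM. Among 18 measured junction and adhesion genes, 5 were higher and 3 lower, with Ncam1, the neural cell adhesion molecule, at 305 and 83.6 CPM and the integrin Itga11 at 9.72 and 41.6 CPM.

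Acute phase and complement genes were higher for the most part. Of 16 measured, 9 were at least 2-fold higher and 3 at least 2-fold lower. The median log2 ratio was 1.31. Saa3 had a log2 ratio of 4.74 and Clu of 4.41; both had been named as markers with these data in view. The central complement protein C3 was at 566 CPM in the Wt1 positive stroma and 66.0 CPM in marker negative stroma, and C4b at 72.9 and 6.47 CPM. C1s, a protease that starts the classical pathway, had a log2 ratio of 3.12. C4b and C1s have near-identical copies in the mouse, and the sources used here do not say how reads shared by copies were counted. Lower were Ptx3, a secreted pattern recognition protein (7.51 and 48.9 CPM), Serpina3n, a protease inhibitor (19.9 and 53.9 CPM), and haptoglobin (Hp, 22.1 and 56.6 CPM). In sham marker negative stroma C3 was at 1192 CPM, above the members. Clu was at 1.44 CPM (1 UMI) there, and Saa3 had no UMI.

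Chemokines pointed both ways. Of 20 measured chemokine and cytokine genes, 7 were higher and 5 lower. The monocyte attractants Ccl2 (210.3 CPM in the Wt1 positive stroma, 24.5 CPM in marker negative stroma) and Ccl7 (66.7 and 15.2 CPM) and the neutrophil attractants Cxcl1 (317 and 46.8 CPM) and Cxcl2 (73.3 and 12.4 CPM) were among the higher. Ccl8, Ccl9, Cxcl9, Cxcl14 and Tslp were the lower ones. In sham marker negative stroma Cxcl1 was at 307 CPM and Ccl2 at 64.8 CPM. Macrophage markers, summed over 12 genes, were alike in both sets, at 398 CPM (373 to 425) in the Wt1 positive stroma and 419.8 CPM (409.7 to 430.1) in marker negative stroma.

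Immediate early genes, which respond within minutes to stress, to growth factors and to cell isolation, were higher in 12 of 16 and lower in none, with a median log2 ratio of 1.95. Fos was at 1432 CPM in the Wt1 positive stroma and 328 CPM in marker negative stroma, Atf3 at 127 and 11.1 CPM, and Ier3 at 987 and 129 CPM. MI mesothelial cells were close to the Wt1 positive stroma, with 1486 CPM of Fos, and sham mesothelial cells had 1334 CPM. Sham marker negative stroma had 553 CPM. The part of cell isolation in these levels was not tested.

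Wnt genes differed in both directions. Of 16 measured, 8 were higher and 3 lower. Besides Wnt4 and Rspo1, the ligands Wnt5a (83.1 CPM in the Wt1 positive stroma, 13.2 CPM in marker negative stroma) and Wnt11 (19.9 and 4.74 CPM) and the receptor Fzd1 (103 and 33.4 CPM) were higher. Axin2, a feedback target of the pathway, was at 7.07 and 2.11 CPM. The secreted antagonists Frzb (4.42 and 81.3 CPM) and Sfrp1 (438 and 1301 CPM) were lower. Dkk2, a secreted modulator, had no UMI in the Wt1 positive stroma and 614 in marker negative stroma. With the members' sum set to 3 counts, the log2 ratio was at most -4.89.

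Growth factor genes pointed both ways. Vegfa was at 86.1 CPM in the Wt1 positive stroma and 23.8 CPM in marker negative stroma, and its receptor Kdr at 42.0 and 3.33 CPM. Kdr is an endothelial marker. The endothelial genes Pecam1 (5.74 and 6.60 CPM) and Cdh5 (5.74 and 4.55 CPM) were alike. The 9 endothelial markers with Kdr summed to 207 CPM (189 to 227) in the Wt1 positive stroma and 148 CPM (142 to 154) in marker negative stroma. The part of endothelial RNA in the Kdr level was not tested. Pdgfrb, the receptor of pericytes and activated fibroblasts, was at 32.2 and 169 CPM. Igf1 was at 523 and 218 CPM, and the binding protein Igfbp3 at 298 and 29.5 CPM. Igfbp7 went the other way, at 1082 and 3431 CPM. Fgf1 was at 15.5 and 1.73 CPM, and Fgf7 at 5.30 and 23.0 CPM. In these lists 3 of 13 vascular growth factor genes, 3 of 11 insulin-like growth factor genes and 3 of 11 fibroblast growth factor genes were higher, and 4, 3 and 3 were lower. Sham marker negative stroma had 578 CPM of Igf1, 37.5 CPM of Igfbp3 and 24.5 CPM of Kdr.

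**Figure D3:**
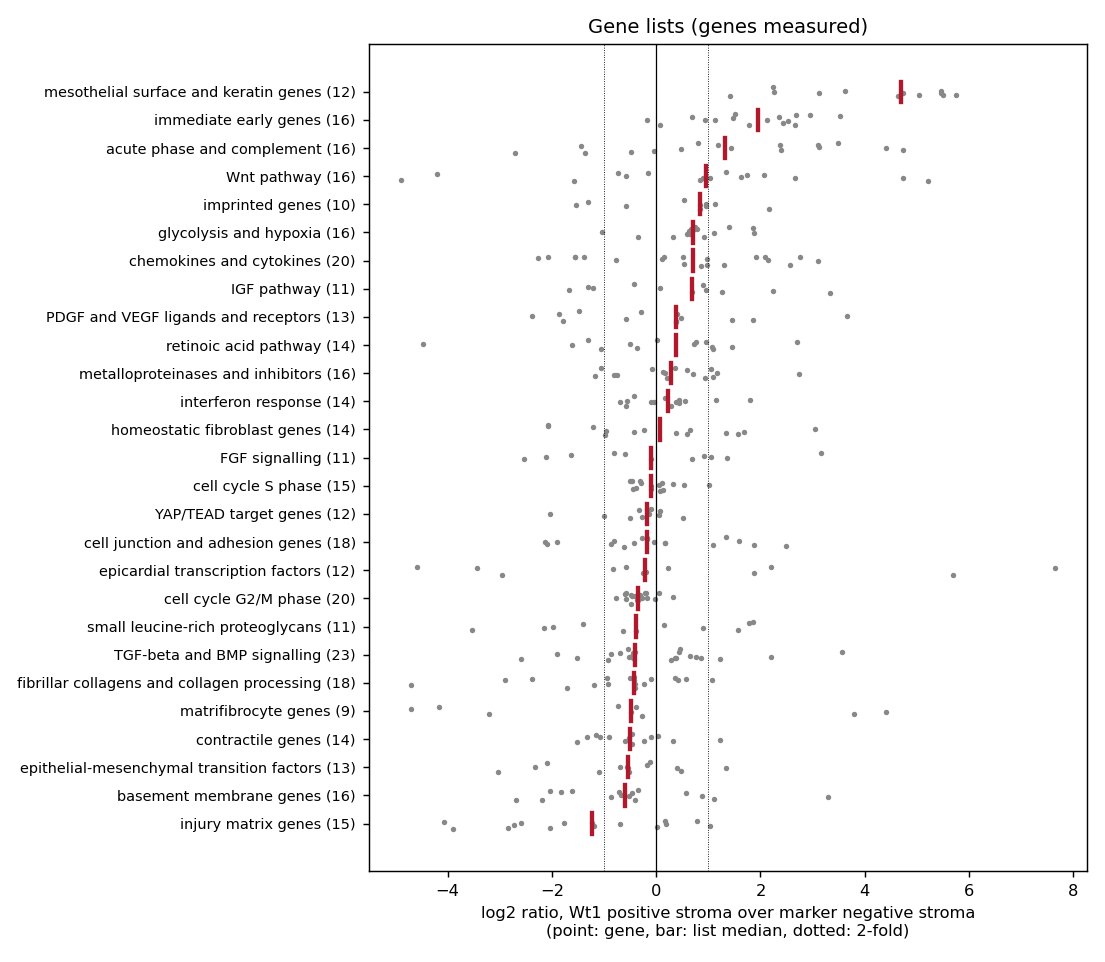
Log2 ratio of Wt1 positive stroma over marker negative stroma for each measured gene of 27 lists (points) with the list median (bar) and the 2-fold limits (dotted). The surface epithelium list has the highest median, 4.69, and the injury matrix list the lowest, -1.23.

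Injury matrix genes were lower in the Wt1 positive stroma for the most part. Of 15 measured, 9 were at least 2-fold lower and 1 at least 2-fold higher. The median log2 ratio was -1.23. Postn, the matrix protein of activated fibroblasts (chr3:54361109-54391037 in mm10), was at 194 CPM in the Wt1 positive stroma, 153 CPM in mesothelial cells and 3253 CPM in marker negative stroma, a log2 ratio of -4.07 (-4.21 to -3.93) over the last. After thinning, 11.8% (8.38 to 16.1) of members had a Postn UMI, against 18.98% (12.8 to 26.6) of lymphocytes and 83.3% of marker negative stroma. Without thinning the order was the other way, with 40.2% (34.6 to 46.0) of members and 22.5% (16.5 to 29.5) of lymphocytes. Members and lymphocytes differ in depth, with medians of 6252.5 and 1385 UMIs. The part of free RNA in the Postn of members was not tested. For Cthrc1, a secreted protein of scar fibroblasts, the share in members was above that of lymphocytes after thinning too. It was at 327 CPM in the Wt1 positive stroma and 1108 CPM in marker negative stroma, and 19.9% of members had a UMI, against 8.76% of lymphocytes and 58.5% of marker negative stroma.

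The rest of the injury matrix was uneven. Thbs2, a thrombospondin, was at 76.4 CPM in the Wt1 positive stroma and 551 CPM in marker negative stroma, and Ctgf, a matricellular growth factor, at 239 and 979.5 CPM. Tnc, tenascin C, was at 443 and 256 CPM and Spp1, osteopontin, at 94.1 and 82.9 CPM, both within 2-fold. Sparc, a collagen-binding protein, was at 14650.3 and 14579.8 CPM. Tgfbi, at 114 and 55.9 CPM, was the higher one.

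Collagens other than those of the rule and the enzymes that process them gave 1 higher and 5 lower of 18. Col8a1, a chain of the short collagen VIII, was at 91.0 CPM in the Wt1 positive stroma and 2378 CPM in marker negative stroma, a log2 ratio of -4.71 (-4.91 to -4.51). Lymphocytes had 236 CPM of it. Loxl3, a collagen crosslinking enzyme, was at 31.8 and 239 CPM. Plod2, a lysyl hydroxylase of collagen, was at 491 and 233 CPM and was the higher one. Col5a1, Col5a2, Lox, Loxl1, Loxl2 and the collagen chaperone Serpinh1 were all within 2-fold. The proteoglycan Aspn was at 115 and 1338 CPM, Lum at 700.2 and 635 CPM.

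Other genes furthest below 0 were Rgs5, a regulator of G proteins in pericytes (3.98 CPM in the Wt1 positive stroma, 140.3 CPM in marker negative stroma), Comp, cartilage oligomeric matrix protein (4.86 and 127 CPM), and the transcription factor Foxp2 (1 UMI against 726). Wisp2 had a log2 ratio of -4.16. Srpx2 was at 19.4 and 338 CPM, and Serpine2, a protease inhibitor, at 27.8 and 457 CPM. Cpxm2 and Wfdc18 had 2 UMIs each in the members. The 8 mural markers summed to 132 CPM (118 to 148) in the Wt1 positive stroma and 324 CPM (315 to 333) in marker negative stroma. The marker negative stroma also holds a cluster of 90 cells, described further on, that leads with Rgs5 and has no member. The part of such cells in the Rgs5 difference was not tested.

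Matrifibrocyte genes, known from mature scar cells, gave 2 higher and 3 lower of 9. The higher ones were Clu and Angptl7 (216 CPM in the Wt1 positive stroma, 15.5 CPM in marker negative stroma). Basement membrane genes gave 2 higher and 5 lower of 16, with Col4a1 at 137 and 621 CPM and Col4a6 at 33.1 and 3.40 CPM. Glycolysis and hypoxia genes gave 4 higher and 1 lower of 16, and interferon genes 2 higher and none lower of 14. Of 12 YAP/TEAD target genes none was at least 2-fold higher and 2 were lower. Of 16 metalloproteinase and inhibitor genes 4 were higher and 2 lower, with the secreted protease Adamts9 at 65.8 and 9.80 CPM. Of 23 TGF-beta and BMP genes 3 were higher and 3 lower. Over all genes 8.85% were higher and 8.52% lower, and with lists this short the counts do not set them apart from that background.

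Contractile genes, which mark myofibroblasts, were intermediate. In the comparison with marker negative stroma 1 of 14 was higher and 4 lower, with a median log2 ratio of -0.49. Acta2, smooth muscle actin, was at 1032 CPM in the Wt1 positive stroma and 2311 CPM in marker negative stroma. After thinning, 30.7% (25.5 to 36.3) of members had an Acta2 UMI, against 13.9% (8.56 to 20.8) of lymphocytes and 64.7% of marker negative stroma. Acta2 was at 0 in 121 of 296 members, with a median of 2.17 UMIs per 10000 and a highest value of 138.

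The comparison with mesothelial cells of the same heart ran in the other direction. Of 10600 genes 345 were at least 2-fold higher (3.25%) and 586 at least 2-fold lower (5.53%) in the Wt1 positive stroma. The median gene had a log2 ratio of -0.03. Contractile genes were at least 2-fold higher in 9 of 14 and lower in 1, with a median of 1.75. Acta2 was at 1032 CPM in the Wt1 positive stroma and 246 CPM in mesothelial cells, and the actin Actg2 at 57.9 and 3.95 CPM, a log2 ratio of 3.87 (2.79 to 5.21). Calponin (Cnn1) was at 57.0 and 8.47 CPM and transgelin (Tagln) at 840.2 and 198 CPM. Sham mesothelial cells had 8.63 CPM of Acta2, or 2 UMIs.

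Matrix genes followed the same order. Injury matrix genes were at least 2-fold higher in 6 of 15 and lower in none, and the median was 0.99. Thbs4 is among the 6, but 1 member held all of its 26 UMIs, so it is no trait of the set. Tnc was at 443 CPM in the Wt1 positive stroma and 95.5 CPM in mesothelial cells, and Cthrc1 at 327 and 87.6 CPM. Postn, at 194 and 153 CPM, was not among them. Col11a1, a fibrillar collagen, was at 171 and 44.1 CPM and the proteoglycan lumican (Lum) at 700.2 and 186 CPM. The attractant Cxcl12 was at 599 and 143 CPM, Crispld2 at 231 and 42.9 CPM, and the protease Adam19 at 43.7 and 6.21 CPM. Since 170 of the 200 mesothelial cells met the collagen limit, the set was also taken, as an alternative added after seeing the data, with that limit and at least 3 marker UMIs. The counts were then 379 higher and 552 lower.

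All 13 measured surface epithelium genes were at least 2-fold lower in the Wt1 positive stroma than in mesothelial cells, with a median log2 ratio of -2.91. The Wt1 positive stroma was chosen for few UMIs of Msln, Upk3b and Krt19, so this direction is not independent of the rule. Krt7 was at 3.09 and 121 CPM, the mucin Muc16 at 0.883 and 28.2 CPM, and the claudin Cldn15 at 11.9 and 149 CPM. Another large difference was in Igfbp5, which binds insulin-like growth factors, at 59.2 CPM in the Wt1 positive stroma and 1102 CPM in mesothelial cells. Marker negative stroma had 56.2 CPM. Dpp4, a surface peptidase, was at 7.07 and 104 CPM, the atrial myosin light chain Myl7 at 2.21 and 45.8 CPM, and C3 at 566 and 1464 CPM.

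Single genes of several lists had close levels in the Wt1 positive stroma and mesothelial cells. Clu had a log2 ratio of 0.20 and Saa3 of 0.10, and Aldh1a2 was at 119 and 124 CPM. Wnt4 was at 118 and 129 CPM, Gata6 at 440.0 and 449 CPM, and Enpp2 at 239 and 218 CPM. The lists they come from were not alike as a whole. Immediate early genes were at least 2-fold higher in 1 of 16 and lower in 2, with Atf3 at a log2 ratio of -1.48. Acute phase and complement genes were lower in 5 of 16 and higher in none, and retinoic acid genes higher in 2 and lower in 3 of 11.

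Members with no mesothelial UMI were compared with those that had 1 or 2, since these are nearest to the mesothelial limit. Some surface genes outside the rule differed between them by more than counting error and others did not. Upk1b was at 112 CPM (89.4 to 139) in the 100 members with 1 or 2 such UMIs and 31.9 CPM (23.6 to 42.2) in the 196 with none. Keratin 8 (Krt8) was at 35.6 CPM (23.3 to 52.2) and 28.7 CPM (20.8 to 38.5), and Igfbp6 at 107 CPM (84.5 to 133) and 105 CPM (89.4 to 122), with intervals that overlap. Cthrc1 was at 193 and 390.5 CPM in the same order and Postn at 106 and 236 CPM. Clu was at 1114 and 1676 CPM. The 196 cells still had 402 CPM of Saa3 and 122 CPM of Aldh1a2.

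Over the collagen positive cells with at most 2 mesothelial UMIs, levels were ordered by the UMIs of Wt1, Lrrn4 and Cxadr. Clu stood at 70.5 CPM in cells with none, 594 with 1, 1212 with 2, 1598 with 3 to 5 and 1414 with 6 or more. Postn ran in the opposite direction, at 3253, 1754, 479.6, 222 and 172 CPM over the same steps. Acta2 was at 2311, 2439, 1981, 1226 and 881 CPM, so that cells with 1 marker UMI still had the level of cells with none. Dcn was at 1510, 2476, 4066, 4857 and 4195 CPM. The cells with 1 or 2 marker UMIs can be a mixture, since marker UMIs were also seen in lymphocytes, for Cxadr in 3.47% of them. Whether those UMIs came from free RNA or from mixed droplets was not tested. Depth varies over the steps, with medians from 4986.5 to 7501 UMIs.

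**Figure D4:**
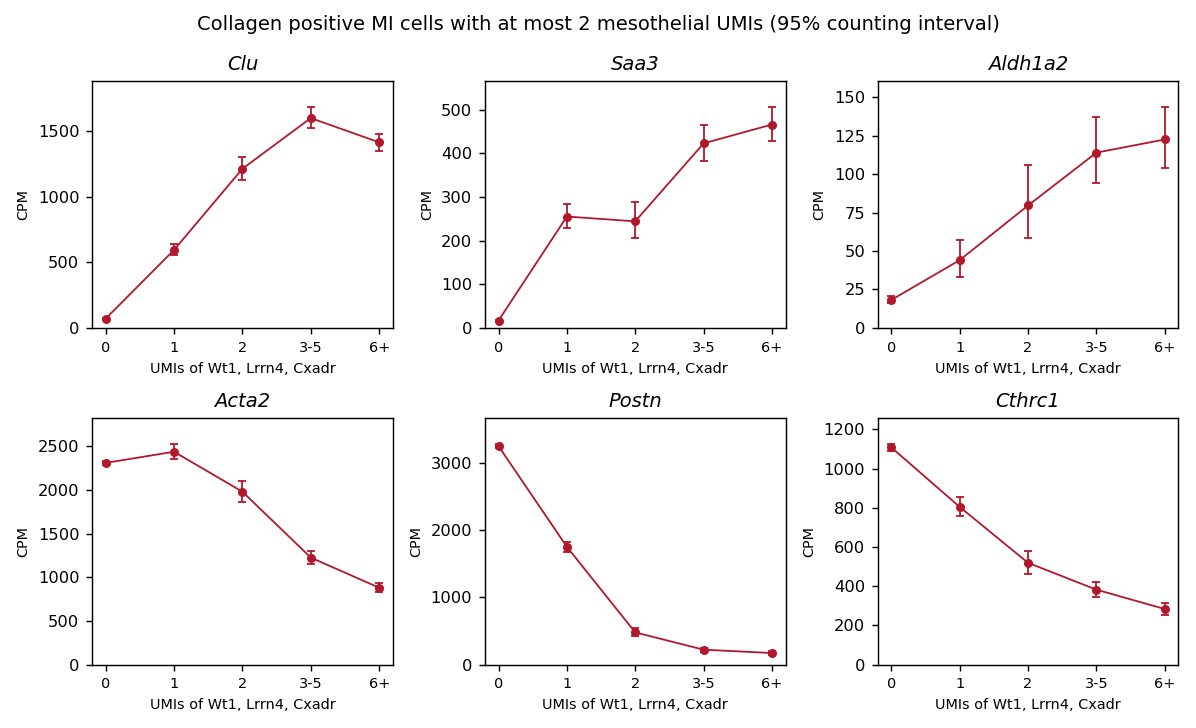
CPM of 6 genes in collagen positive MI cells with at most 2 mesothelial UMIs, by their UMIs of Wt1, Lrrn4 and Cxadr; points are sums over the cells of a step and bars are 95% counting intervals. Clu is at 70.5 CPM in cells with 0 marker UMIs and 1414 CPM in cells with 6 or more, and Postn at 3253 and 172 CPM.

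Members differed among themselves along Acta2. The 80 members with at least 10 Acta2 UMIs per 10000 were set beside the 121 with none, a description made after the values were seen. Depth differs strongly, with medians of 10732 and 4508 UMIs. The Acta2-rich members had more Col11a1 (log2 ratio 4.17), Tagln (1493 and 158 CPM) and Pcolce2, an enhancer of procollagen cleavage (91.1 and 5.19 CPM). They also had more of the mitotic genes Hmmr (115 and 5.19 CPM) and Birc5 (115 and 8.66 CPM). Enpp2 was at 38.6 CPM in the Acta2-rich members and 537 CPM in those without, C3 at 164 and 1283 CPM, and Mgp, an inhibitor of calcification, at 2198 and 11569.6 CPM. The surface gene Dmkn was at 12.9 and 116 CPM.

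The 62 members with at least 2 Saa3 UMIs were set beside the 217 with none in the same way, at medians of 5755 and 6437 UMIs. Those with Saa3 had more Ces2g, a carboxylesterase with close copies in the mouse (58.2 and 17.4 CPM), more ceruloplasmin (Cp, 163 and 69.1 CPM) and more of the protease inhibitor Timp1 (1364 and 773 CPM). Dpt, the matrix protein dermatopontin, was at 90.4 CPM with Saa3 and 408 CPM without, Mfap5 at 205 and 584 CPM and Cxcl2 at 18.1 and 87.8 CPM.

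When the 3453 collagen positive MI cells were clustered without the genes of the rule, most members still fell together. Of 11 clusters, number 2 with 609 cells held 250 of the 296 members (84.5%, 79.8 to 88.4). It also held 147 of the 162 mesothelial cells with the collagen and marker limits met (90.7%), 131 of the 273 cells with 1 or 2 marker UMIs (48.0%) and 74 of the 2714 marker negative cells (2.73%). Its leading genes were Upk1b, Nkain4, Dmkn, Fam110c, Bnc1, Alas2, Gpm6a, Gm8113, Sez6l and Fras1. The clusters were made from the same cells, so these genes describe the cluster and are no further finding. At a finer resolution, 73.0% of members but 36.4% of the mesothelial cells were in the cluster with most members. With called doublets left out the values were 84.0% and 41.4%.

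The 74 marker negative cells of this cluster were near the members on Clu and Postn. The 250 members in it had 1686 CPM of Clu and 115 CPM of Postn, against 2099.8 and 168 CPM in these 74 cells. Saa3 was at 556 CPM in the members and 308 CPM in the 74 cells. Acta2 was at 898 CPM in the members and 1963 CPM in the 74 cells. These cells had no UMI of Wt1, Lrrn4 or Cxadr, so the rule counts fewer cells than the cluster does. Clu and Postn were not left out of the clustering, so the nearness on them is not independent of it. The depth of the 74 cells was not compared with that of the members, so missed marker UMIs were not tested. Of the other members 15 were in cluster 7, whose leading genes include Angptl1, Tnmd and Tnn, 10 in cluster 5, led by mitotic genes such as Cenpf, 9 in cluster 8, led by macrophage genes such as C1qc, and 8 in cluster 6, led by histone genes. Cluster 0, led by contractile genes such as Cnn1 and Acta2, held 707 marker negative cells and no member. Cluster 9, led by Rgs5 and other mural genes, had none either.

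**Figure D5:**
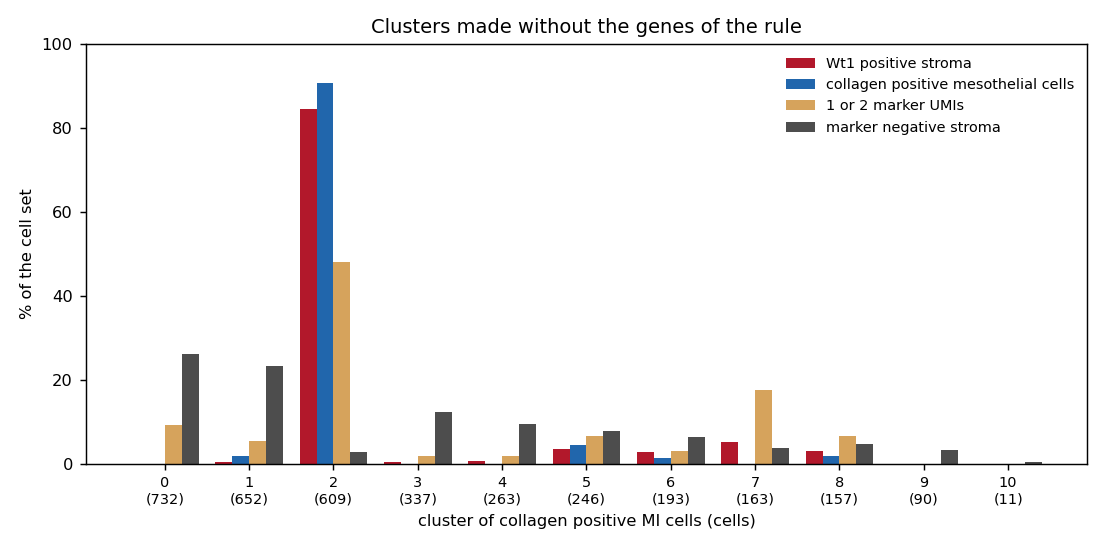
Share of each cell set in each of 11 clusters of collagen positive MI cells, made without the genes of the rule; bars are percent of the set. Cluster 2 holds 84.5% of the Wt1 positive stroma, 90.7% of the 162 mesothelial cells that met the collagen and marker limits and 2.73% of the marker negative stroma.

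G2/M transcripts were found in a smaller share of the Wt1 positive stroma than of marker negative stroma. After thinning, 9.12% (6.10 to 13.0) of members had at least 2 UMIs of the 20 G2/M genes, against 10.5% of mesothelial cells, 16.5% (15.1 to 17.9) of marker negative stroma and 7.30% (3.56 to 13.0) of lymphocytes. The share of members lies within the interval of the lymphocytes. Whether the lymphocytes held dividing cells was not tested, so this does not show whether members cycle. Of the members, 10 fell in cluster 5, led by mitotic genes. None of the 20 genes was 2-fold higher or lower than in marker negative stroma. Mki67 was at 161 CPM in the Wt1 positive stroma and 194 CPM in marker negative stroma, and 10 cells held 71.7% of its 364 UMIs in members. Unthinned, the G2/M shares were 26.0% in the Wt1 positive stroma and 30.8% in marker negative stroma.

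Summed markers of other cells were lower in the members than in marker negative stroma for some cell types and higher for others. Macrophage genes had the largest of these sums, at 398 CPM in the Wt1 positive stroma and 419.8 CPM in marker negative stroma. Schwann cell genes summed to 45.1 and 20.8 CPM, of which Mbp had 39.8 and 0.961 CPM. Cardiomyocyte genes summed to 15.5 CPM over 9 genes, against 48.6 CPM in marker negative stroma, and Myl2, Pln and Nppa had no UMI. B cell genes summed to 9.28 and 31.2 CPM and T and NK cell genes to 8.84 and 4.87 CPM. Endothelial genes summed to 207 CPM (189 to 227) in the Wt1 positive stroma and 148 CPM (142 to 154) in marker negative stroma, of which Kdr had 42.0 and 3.33 CPM. Lymphatic genes summed to 240.3 and 85.4 CPM, of which Pdpn, also a mesothelial gene, had 225 CPM in members, while Prox1, Ccl21a and Mmrn1 had no UMI. The part of stray RNA and doublets in the single values was not tested beyond these sums.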

How the data were processed

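The authors deposited 1 table of UMI counts per library, with genes in rows and cell barcodes in columns, and no normalization. The submitters' processing notes name the mm10 genome and Seurat. The sources used here do not give the aligner, the counting or the cell calling. Every barcode had at least 500 genes, and all columns were used. Per the labels' protocols, cDNA had 12 PCR cycles; intervals cover counting error only.

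The members, gene lists and comparisons were chosen with earlier results of these data known. UMIs were summed over the cells of a set. Levels have exact Poisson 95% intervals, log2 ratios exact conditional binomial ones and shares Clopper-Pearson ones. A gene with no UMI was set to 3 counts over the set. A ratio was computed for genes with at least 20 UMIs over both sets, and a 2-fold ratio was counted. With 1 library per group no test was made. Lymphocytes had at least 3 UMIs of the T and NK cell or of the B cell markers, and no UMI of Lyz2 or Cd68.

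To be ranked, a gene needed 50 UMIs over both sets and detection in 5% of cells of 1 set. No single cell could hold 20% of its UMIs in the higher set, and its direction had to stay with cells matched on depth. List genes could also enter with 20 UMIs over both sets and an interval off 0. Taken were the 12 furthest above and below 0 by the interval end nearest 0, up to 3 in each of 27 lists, and the markers. Other list members, and red cell genes beside Alas2, were named after their values were seen. Collagen positive MI cells were clustered on 2000 variable genes, 30 components and 20 neighbours at resolution 0.8. Doublets were called with Scrublet (147 in MI, 334 in sham), kept, and left out as an alternative. The ratio and interval computations were tested on simulated data. Software was Python 3.11.15, numpy 2.4.6, scipy 1.17.1, scanpy 1.11.5 and leidenalg 0.10.2. Alternatives covered the limits of the rule, depth, scaling, thinning, doublets and cluster resolution.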

Additional observations from a re-analysis of the deposited data

How the results depend on the processing

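No paired analysis was possible because each group is 1 library. The number of members was 178 with at least 5 marker UMIs, 196 with no mesothelial UMI and 57 with every cell thinned to 1000 UMIs first, an alternative chosen after seeing the data. The 57 can include mesothelial cells, since thinning also lowers mesothelial UMIs. With no minimum of UMIs, 2771 genes were at least 2-fold higher than in marker negative stroma, and 950 were higher and 1552 lower than in mesothelial cells. With mesothelial cells of at least 6 mesothelial UMIs, 519 were higher. Shares of members depend on depth. For Saa3 the share was 26.7% without thinning, for Clu 41.6% at 500 UMIs and 87.5% without thinning, and for at least 2 G2/M UMIs 26.0% without thinning. The main cluster held 90.2% of members at resolution 0.4 and 73.0% at 1.2. Of 408 values of named genes under the alternatives 37 moved. Their direction was largely fixed by how the genes were chosen, so it says nothing about stability. Of 135 list medians 129 kept their direction. TGF-beta and BMP genes went to 0.29 with equal weight per cell, and imprinted genes to -0.53 with cells of at least 2 G2/M UMIs left out. With 1 library per group, the spread between hearts is unknown.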

Other observations

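The remaining gene lists showed no common direction in the Wt1 positive stroma against marker negative stroma. Of 14 measured genes of homeostatic fibroblasts, 4 were at least 2-fold higher and 3 at least 2-fold lower. Gsta3, a glutathione transferase with close copies in the mouse, was at 13.7 CPM in the Wt1 positive stroma and 1.67 CPM in marker negative stroma, and Smoc2, a secreted matrix protein, at 27.8 and 118 CPM. Small leucine-rich proteoglycans gave 3 higher and 4 lower of 11, with Dcn among the higher and Aspn among the lower. Imprinted genes gave 2 higher and 2 lower of 10. Peg3, a zinc finger gene expressed from the paternal copy, was at 94.1 CPM in the Wt1 positive stroma and 43.1 CPM in marker negative stroma, and the noncoding RNA H19 at 141 and 351 CPM. Of 15 measured S phase genes, 1 was higher and none lower. The shares over all genes were 8.85% higher and 8.52% lower.

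Against MI mesothelial cells, 3.25% of all genes were at least 2-fold higher in the Wt1 positive stroma and 5.53% at least 2-fold lower. Of 14 interferon response genes, 4 were at least 2-fold lower and none higher. Cell junction and adhesion genes gave 3 higher and 5 lower of 16, and the tight junction gene Tjp1 and the desmosome genes Pkp2 and Dsp were among the lower. Of 13 epicardial transcription factors, Gata5 and Bnc1 were at least 2-fold lower and none was higher. Gata5 was at 12.8 CPM in the Wt1 positive stroma and 27.1 CPM in mesothelial cells, and Bnc1 at 19.9 and 51.4 CPM.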
